A study of Mus musculus with 4 samples.

Results

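Natural killer (NK) cells were taken from a single-cell RNA count matrix of mouse liver by their marker genes. The rule asked for at least 2 UMIs (counted RNA molecules) over Ncr1, Klrb1c and Gzma, with at least 1 from Ncr1 or Klrb1c. It also asked for 0 UMIs of the T cell genes Cd3d, Cd3e and Cd3g, 0 of the B cell gene Cd79a, under 3 of the macrophage genes C1qa, C1qb and C1qc, and 0 of Siglech, a gene of plasmacytoid dendritic cells. A barcode needed at least 500 UMIs, at least 200 genes and under 20% mitochondrial UMIs. The rule found 317 NK cells among 36150 barcodes, a share of 0.877% (95% exact Clopper-Pearson interval 0.783 to 0.978%).

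The study followed gene-induced models of hepatocellular carcinoma (HCC) in mouse liver, and each of 4 groups held 1 sample. HCC-ES was tumor tissue at week 4, HCC-MS was tumor tissue at week 8, HCC-LS was tumor tissue at week 10 in the sample's label and at week 12 in the series text, and HCC-NL was normal liver at week 0. The gene or genes that drive the tumors, the strain and the age of the animals are not stated in the labels. The barcodes of the joined matrix carry suffixes 1 to 4, called libraries here, and no source pairs a library with a sample, so no weeks were compared, no p-value is given, and all intervals are 95% intervals that cover counting error only.

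NK cells are innate lymphocytes that kill stressed, infected or transformed cells without a rearranged antigen receptor. They read a balance of activating receptors and of inhibitory receptors for MHC class I, and they kill with perforin, which opens the target's membrane, and granzymes, the proteases that enter through it. The liver holds both conventional NK cells, which depend on the transcription factor Eomes and circulate, and type 1 innate lymphoid cells (ILC1), which stay in the tissue and share many NK genes.

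The 317 NK cells were spread over all libraries, with 80, 133, 67 and 37 cells in libraries 1 to 4. Their shares of the libraries were 0.874% (0.694 to 1.09%), 1.64% (1.37 to 1.94%), 0.658% (0.511 to 0.835%) and 0.425% (0.300 to 0.586%). Library 2 thus held the highest share and library 4 the lowest, and the interval of library 2 overlapped no other. Without library 2 the pooled share was 0.657%. NK cells had a median of 2386 UMIs and 1203 genes, with median UMI numbers of 1390, 3005, 1725 and 3117 in libraries 1 to 4, so libraries 2 and 4 were the deeper ones. The counts are of the 3' ends of transcripts, so a level does not scale with gene length. A barcode sequence that also occurred under another suffix was found for 9 NK cells, and no 2 NK cells shared one.

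The members around the rule's limits were as follows. Of the 317 cells, 298 had 3 or more marker UMIs, and 19 had exactly 2. The 19 cells just inside had 1396 CPM (counts per 1000000 UMIs, summed over the cells) of Nkg7, 1454 of Fcer1g and 582 of Klrd1, against 2493, 2269 and 508 CPM in the 298 cells. Just outside lay 23 barcodes with 1 marker UMI, which had 601 CPM of Nkg7, 833 of Fcer1g and 185 of Klrd1. A further 137 barcodes met the marker limits but held a Cd3 UMI, 69 held Gzma without Ncr1 or Klrb1c, and 9 failed another limit. The 137 had 2046 CPM of Nkg7, 1609 of Fcer1g and 457 of Klrd1, nearer to the 298 cells than the 23 barcodes were. The 69 had 1243, 1607 and 164 CPM, and the 9 had 1886, 4047 and 411.5 CPM. Those of the 137 with 2 or more Cd3 UMIs could enter the T cell classes below. The rule's own genes are a description and not a finding. Ncr1, the activating receptor NKp46, was at 733 CPM and had a UMI in 74.8% of the cells, Klrb1c, the receptor NK1.1, was at 527 CPM in 77.6%, and Gzma, the protease granzyme A, was at 8003 CPM in 84.9%.

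Nkg7, Tyrobp and Fcer1g, which the rule did not use, were read in most of the cells. Nkg7, a granule membrane protein, was at 2454 CPM and had a UMI in 94.3% of the cells. Tyrobp and Fcer1g, the adaptors that carry signals from activating receptors, were at 2634 CPM (93.7% of the cells) and 2240 CPM (94.6%). Hepatocyte barcodes were picked with no UMI of the leukocyte gene Ptprc and should lack these genes. There Nkg7, Tyrobp and Fcer1g were at 1.69, 10.5 and 9.97 CPM. This contrast sets leukocytes apart from hepatocytes and does not separate NK cells from T cells, which are compared below. Thinned to 1000 UMIs a cell, Nkg7 had a UMI in 81.6% of 283 NK cells and 0.200% of 1000 hepatocyte barcodes. Tyrobp had one in 85.2% and 1.00%, and Fcer1g in 84.5% and 1.10%. Before thinning the median was 2386 UMIs over all 317 NK cells and 2633 UMIs over all 5233 hepatocyte barcodes. Il2rb, the receptor chain shared by interleukins 2 and 15, was at 633 CPM. Of the 14 listed T cell markers, Cd4 and Cd5 were at 0 UMIs beside the Cd3 genes that the rule set to 0. The 14 together had 218 UMIs (228 CPM), mostly of Trbc1 and Trbc2. Of the 8 listed B and plasma cell markers Ms4a1, Jchain and Mzb1 were at 0, and the 8 together had 64 UMIs (66.9 CPM). All 6 basophil and mast cell markers were at 0. The genes of other innate lymphoid cells were also sparse, since Il1rl1, Il13, Il5, Il22, Il17a, Il23r and Ccr6 had 0 UMIs, and the 10 listed ILC2 and ILC3 genes together had 21 UMIs (22.0 CPM).

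The killing genes differed in how evenly they were carried. Ccl5, a chemokine stored by cytotoxic cells, was at 10222 CPM and had a UMI in 98.1% of the cells. Gzmb, the protease granzyme B, was at 911 CPM with a UMI in 55.5% of the cells, and Prf1, perforin, at 243 CPM in 40.1%. After thinning the shares were 95.4%, 41.7% and 23.3% of NK cells, against 0.700%, 0% and 0% of hepatocyte barcodes. The other listed granzymes were lower, with Gzmc at 68.0 CPM, Gzmm at 19.9 and Gzmk at 5.23, the last from 5 UMIs. Among the death ligands Fasl stood at 86.8 CPM and Tnfsf10, which encodes TRAIL, at 26.1 CPM. Thinning kept the 283 of 317 NK cells with at least 1000 UMIs.

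Chemokines and cytokines were led by genes that recruit other immune cells. Ccl4 was at 1596 CPM, Xcl1, which attracts cross-presenting dendritic cells, at 663 CPM, and Ccl3 at 366 CPM. Ifng, interferon gamma, was at 71.1 CPM from 68 UMIs, Tnf at 8.37 CPM from 8 UMIs, and Il10 at 0. Ccl3 and Ccl4 were often found in the same cells. Ccl4 had a UMI in 79.0% of 105 cells with Ccl3 and in 44.8% of 212 cells without it, and after thinning in 68.5% (54.5 to 80.5%) of 54 and 40.2% (33.8 to 46.8%) of 229, with intervals that did not overlap.

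The lectin-like receptors, which the mouse NK gene complex encodes, were read by most of the cells. The 21 listed genes outside the rule summed to 3080 CPM, and 1 of them, Klra10, had 0 UMIs. Klrd1, the CD94 partner chain, was at 510 CPM and had a UMI in 65.9% of the cells (39.2% after thinning, against 0% of hepatocyte barcodes). Its partner Klrc1, the inhibitory chain NKG2A, was at 259 CPM, and the activating chain Klrc2 at 112 CPM. Klrk1, the activating receptor NKG2D, was at 353 CPM and Klre1 at 351 CPM. Among the Ly49 genes, whose products bind MHC class I, Klra4 stood at 289 CPM, Klra8 at 235, Klra7 at 225, Klra9 at 120, Klra3 at 77.4 and Klra1 at 34.5 CPM. Klra8 encodes Ly49H, an activating receptor for a viral protein in the strains that carry it. The Ly49 genes are similar in sequence, so the split of counts among them is uncertain.

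**Figure D1:**
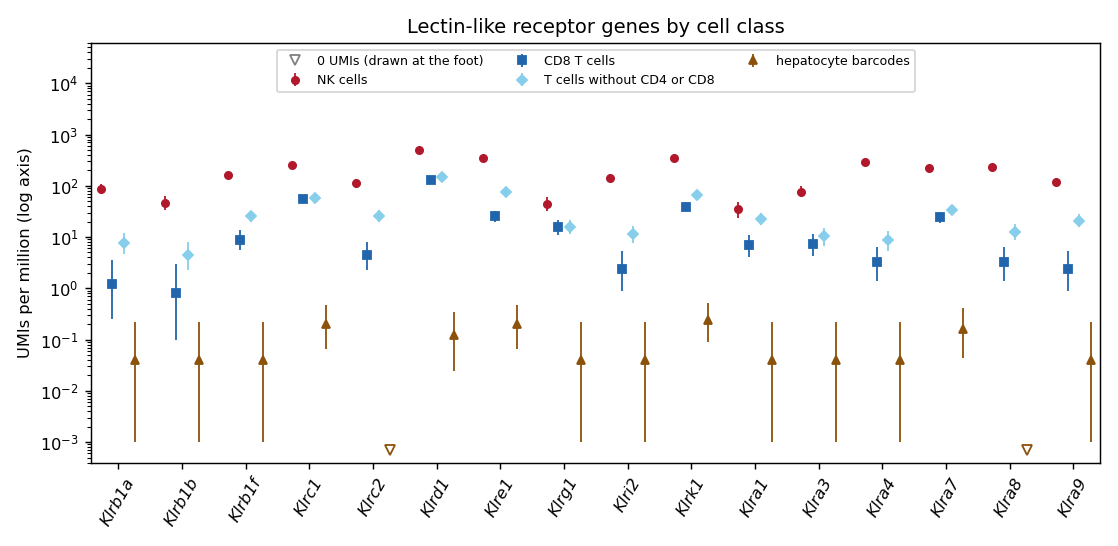
Counts of 16 lectin-like receptor genes in NK cells, CD8 T cells, T cells without CD4 or CD8, and hepatocyte barcodes, as CPM on a log axis with 95% Poisson intervals. NK cells lie highest for each of the 16 genes, from 34.5 CPM for Klra1 to 510 CPM for Klrd1, and the hepatocyte barcodes lie under 1 CPM.

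Single cells differed in the Ly49 genes that were counted in them. Of the 317 cells, 44.5% had a UMI of none of Klra1, Klra3, Klra4, Klra7, Klra8 and Klra9, 15.8% of 1 gene, 19.9% of 2, 14.2% of 3 and 5.68% of 4 or more. After thinning the shares were 54.8%, 22.6%, 17.3%, 3.89% and 1.41% of 283 cells, so they depend on depth. Klra8 had a UMI in 13.0% (7.49 to 20.6%) of 115 cells with Klrc1 and in 37.6% (30.9 to 44.7%) of 202 cells without Klrc1. After thinning these shares were 10.0% (3.76 to 20.5%) of 60 cells and 22.4% (17.1 to 28.5%) of 223 cells, and their intervals overlapped. Klra8 went the other way with Klra4. It had a UMI in 54.7% of 86 cells with Klra4 and in 19.0% of 231 cells without it, and in 35.3% (22.4 to 49.9%) and 16.4% (11.9 to 21.8%) after thinning, with intervals that did not overlap. How far the similar sequences of these genes play into these shares was not tested.

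Of the 17 listed NK transcription factors 13 had 20 or more UMIs in NK cells. Id2, which all innate lymphocytes need, was at 263 CPM, Irf8 at 207, Tbx21, which encodes T-bet, at 146, Ikzf3 at 140 and Eomes at 132 CPM. Zeb2 stood at 59.6 CPM, Nfil3 at 43.9 and Prdm1 at 15.7. Tcf7, a factor of naive and memory-like lymphocytes, was at 26.1 CPM. Of the maturation genes Ccr2 was at 125 CPM, Cma1 at 61.7 and S1pr5, an exit receptor, at 50.2 CPM. Itgam was at 25.1 and Cx3cr1 at 11.5 CPM.

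NK cells were then set against 589 CD8 T cells of the same matrix, the adaptive lymphocytes that kill with the same granules. CD8 T cells had at least 2 Cd3 UMIs, at least 1 Cd8a or Cd8b1 UMI, no Cd4 UMI and the same other limits, and a median of 3047 UMIs. A gene was called higher or lower when it had at least 50 UMIs over both classes, a ratio of CPM of at least 2 with an interval excluding 1, and no opposite direction in any single library that held 20 or more cells of each class. Over 6967 genes, 3.27% were called higher and 2.10% lower in NK cells, and the median log2 ratio was 0.14. Of 185 listed genes outside the rule and the markers of other types, 49 were called higher and 20 lower, with a median log2 ratio of -0.03. The classes were defined by genes, so these ratios describe the classes and are no test.

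Outside the marker lists, the lectin-like receptors had the largest median log2 ratio of any list, 3.78. All 15 of the 21 that reached 50 UMIs were called higher in NK cells. A member can reach that minimum through NK cells alone, and members low in both classes were not tested. The rule also picked NK cells by Klrb1c, a gene of this family, so the count is a description. Klra4 was at 289 CPM in NK cells and 3.25 CPM in CD8 T cells (log2 ratio 6.47, 5.47 to 7.70), Klra8 at 235 and 3.25 CPM (6.18), Klri2 at 142 and 2.44 CPM (5.87), and Klre1 at 351 and 25.6 CPM (3.78, 3.39 to 4.19). Without library 2 the log2 ratios of Klra4 and Klri2 were 5.83 and 4.95. Without library 4 that of Klra4 was 7.58, and without library 1 that of Klri2 was 6.63. With libraries at equal weight Klra8 was at 7.64 and Klri2 at 5.26. The adaptors were higher too. Tyrobp was at 2634 CPM in NK cells and 87.7 CPM in CD8 T cells (4.91), and Fcer1g at 2240 and 97.5 CPM (4.52). Without the barcodes that held 10 or more UMIs of other cell types' markers, the log2 ratio of Tyrobp was 5.81 and that of Fcer1g was 5.31. Klra4 was then at 7.12 and Klra8 at 7.14.

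Granule genes did not move as a block. Of 14, 5 were called higher and 2 lower. Prf1 was at 243 CPM in NK cells and 41.0 CPM in CD8 T cells (log2 ratio 2.56), and in libraries 1 to 4 its log2 ratios were 3.93, 2.04, 3.47 and 2.97. Without library 2, where it was least, the pooled value was 3.40. Serpinb9, which shields a killer from its own granzyme B, was at 177 and 56.4 CPM (1.65), and Fasl at 86.8 and 29.2 CPM (1.57, and 2.34 without library 2). Gzmc had 65 UMIs in NK cells and 23 in CD8 T cells (2.86), and all of the 23 came from library 2. Without that library Gzmc was not called. Its log2 ratio was 4.02 with libraries at equal weight and 6.27 without the barcodes with other markers. Ctsw had a log2 ratio of 1.01, which was 0.91 without library 1 and 0.98 without library 4, both under the 2-fold limit. It also lost its call with a 10% mitochondrial limit, at 1.00, and without cells rich in hepatocyte markers, at 0.99. The lower genes were Gzmk (5.23 CPM in NK cells and 168 CPM in CD8 T cells, -5.00, and -5.68 without the barcodes with other markers) and Gzmm (19.9 and 104 CPM, -2.38). Gzmb, Nkg7 and Ccl5 had log2 ratios of 0.56, 0.71 and 0.60 and were not called.

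Of 14 NK transcription factors with enough UMIs 5 were called higher and 1 lower. Irf8 was at 207 CPM in NK cells and 32.9 CPM in CD8 T cells (log2 ratio 2.65, 3.95 without library 2 and 3.29 with libraries at equal weight), Zeb2 at 59.6 and 12.2 CPM (2.29), Id2 at 263 and 79.6 CPM (1.73) and Tbx21 at 146 and 47.1 CPM (1.64). Eomes was at 132 and 59.7 CPM (1.14), and its log2 ratio was 1.93 without library 2. Tcf7 was lower, at 26.1 and 84.5 CPM (-1.69). Il18rap and Il18r1, the chains of the interleukin 18 receptor, were higher (2.56 and 1.40), as was Cd7 (1.66). Il7r, the interleukin 7 receptor, was lower, at 66.9 and 246 CPM (-1.88). Xcl1 was at 663 and 105 CPM (2.66), Ccl4 at 1596 and 641 CPM (1.32) and Ccl3 at 366 and 151 CPM (1.28).

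Maturation and homing genes were called in both directions. Cma1, which encodes a chymase, had 59 UMIs in NK cells and 0 in CD8 T cells, which makes it at least 50.6-fold higher against a limit of 3 counts over the CD8 T cells. S1pr5 had 48 and 5 UMIs (log2 ratio 4.63, and 3.88 without library 2). Both fell under the minimum of 50 UMIs when any 1 library was left out, and when Ncr1 and Klrb1c needed 2 UMIs. S1pr5 did so too with a minimum of 1000 UMIs a cell. Ccr2 had 120 UMIs in NK cells and 37 in CD8 T cells (3.06, and 3.79 without library 2). The lower genes included Ly6c2 (-2.10), Thy1 (-1.24), the lymph node receptor Ccr7 (2 UMIs in NK cells and 335 in CD8 T cells, -6.02) and the exit receptor S1pr1 (-1.41). Ccr7 was at -6.67 without library 1 and at -6.68 without library 2. S1pr1 was at -2.08 without library 2 and at -0.90 without library 3, under the 2-fold limit. Cd27 was at -1.29, and its log2 ratio was -0.73 without library 2 and -0.96 with libraries at equal weight.

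Every interferon-stimulated gene that was called was lower in NK cells. Of 14 with enough UMIs, 6 were lower and 0 higher, and their median log2 ratio was -1.07. Ifi27l2a was at 164 CPM in NK cells and 1247 CPM in CD8 T cells (-2.92), and its log2 ratios in libraries 1 to 4 were -4.85, -2.68, -2.95 and -3.01. Ly6a, also known as Sca-1, was at 97.2 and 521 CPM (-2.42), and Isg15 at 101 and 238 CPM (-1.23). Without the barcodes with other markers Ly6a and Isg15 had log2 ratios of -2.47 and -1.09 but no longer met every condition. Ifit1 (-2.56), Ifit3 (-2.10) and Gbp2 (-1.37) rested on 5, 10 and 14 UMIs in NK cells and were no longer called without library 2, at -2.57, -4.19 and -2.15. Of the inhibitory receptors Ctla4 had 1 UMI in NK cells and 77 in CD8 T cells (-4.90). Without library 2 it was at -3.07 and no longer called, and with libraries at equal weight it was at -3.82.

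The second comparison set NK cells against 1015 T cells that had at least 2 Cd3 UMIs and no Cd4, Cd8a or Cd8b1 UMI (median 1910 UMIs). Such barcodes can hold gamma delta T cells, natural killer T cells and T cells whose coreceptor was not counted. Over 6953 genes, 3.61% were called higher and 2.69% lower in NK cells, with a median log2 ratio of 0.20. Of 184 listed genes 41 were higher and 25 lower, with a median of 0.35. Both comparisons share the NK cells, so they are given side by side and not as support for each other.

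**Figure D2:**
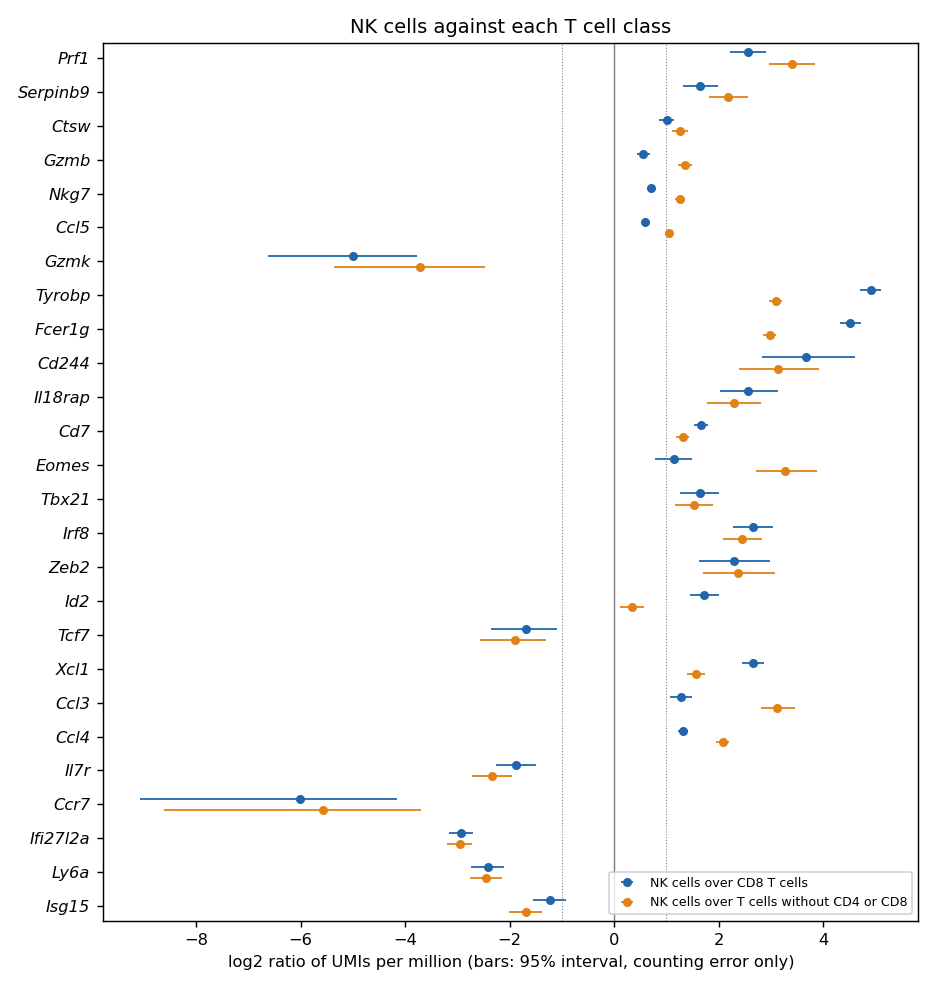
The log2 ratio of CPM of NK cells over CD8 T cells and over T cells without CD4 or CD8 for 26 genes, with 95% conditional binomial intervals. Dotted lines mark 2-fold. Prf1, Tyrobp, Fcer1g and Irf8 lie right of 2 in both comparisons, while Eomes is at 1.14 over CD8 T cells and 3.28 over T cells without CD4 or CD8.

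Against the T cells without CD4 or CD8, 7 of 13 granule genes were called higher and 1 lower. Prf1 was at 243 CPM in NK cells and 23.0 CPM in these T cells (log2 ratio 3.40, and 3.82, 2.90, 3.60 and 4.09 in libraries 1 to 4). Serpinb9 (2.18), Ctsw (1.26) and Nkg7 (1.25) were higher too. Gzmb had 911 and 356 CPM (1.35), but 0.80 without library 2 and 0.99 with libraries at equal weight. Cst7, cystatin F, was at 1.09, and at 0.87 without library 1 and 0.90 with libraries at equal weight. Ccl5 had 10222 and 4941 CPM (1.05), and its log2 ratio in library 2 alone was 0.02. It was 0.82 without library 1, 1.69 without library 2 and 0.76 without library 3. It also lost its call without high doublet scores (1.02), with a 10% mitochondrial limit (1.02) and without cells rich in hepatocyte markers (1.00). Gzmk was lower (5.23 and 69.1 CPM, -3.72), and its log2 ratio was -2.33 without library 2, no longer called. It was not called without high doublet scores either, at -3.75, and was at -4.43 without the barcodes with other markers.

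Of the lectin-like receptors 14 of the 16 that reached 50 UMIs were called higher, and this minimum too can be reached through NK cells alone. Klra4 had 289 CPM in NK cells and 8.63 CPM in T cells without CD4 or CD8 (log2 ratio 5.06), Klrb1a 85.7 and 7.81 CPM (3.46), Klra7 225 and 34.1 CPM (2.72), and Klrc1 259 and 57.1 CPM (2.18). Tyrobp (3.09) and Fcer1g (2.98) were higher, with 309 and 284 CPM in these T cells, and Il18rap (2.29), Il18r1 (1.50) and Cd7 (1.31) as well. Among transcription factors Eomes stood furthest apart, at 132 CPM in NK cells and 13.6 CPM in these T cells (3.28, and 4.48 without library 2). Irf8 (2.45) and Tbx21 (1.52) were higher. Zeb2 was at 2.37 and fell under 50 UMIs without library 3, at 2.39. Tcf7 (-1.90), Zfp683, which encodes the residency factor Hobit (-1.32), and Rora (-1.16) were lower. Ikzf2 was lower at -1.36 and was at -0.82 without library 2. It lost its call in 3 other settings, at -1.37 without high doublet scores, -1.25 with a minimum of 1000 UMIs and -1.19 when Ncr1 and Klrb1c needed 2 UMIs.

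Several genes of tissue-resident lymphocytes were lower in NK cells than in the T cells without CD4 or CD8. Of 14 ILC1 genes 5 were lower and 1 higher. Cxcr6, which holds lymphocytes in the liver sinusoids, was at 49.1 CPM in NK cells and 163 CPM in these T cells (log2 ratio -1.73). In libraries 1 to 4 its log2 ratio was -1.70, -1.30, -1.28 and -1.23, each less negative than the pooled value. Il7r was at 66.9 and 337 CPM (-2.33), Gpr183 at 13.6 and 54.7 CPM (-2.01) and Inpp4b at 38.7 and 122 CPM (-1.65). Il21r was at -1.04, and at -1.88, -0.89 and -0.93 without library 2, 3 or 4. It was at -0.97 with a minimum of 1000 UMIs and -0.88 when Ncr1 and Klrb1c needed 2 UMIs. The higher member was Xcl1, at 663 and 224 CPM (1.56). S1pr1 was lower at 25.1 and 72.8 CPM (-1.54). Ccl3 was at 366 and 41.9 CPM (3.13) and Ccl4 at 1596 and 378 CPM (2.08, and 2.84 without library 2). Tnf was lower (8 and 73 UMIs, -1.84) and was no longer called without library 3, at -1.24.

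The interferon list was again called in 1 direction, with 6 of 14 genes lower and 0 higher. Ifi27l2a was at 164 CPM in NK cells and 1268 CPM in T cells without CD4 or CD8 (log2 ratio -2.95), Ly6a at 97.2 and 530 CPM (-2.45) and Isg15 at 101 and 328 CPM (-1.69). Gbp2 was at -1.24, and at -2.18 without library 2. Ifit1 and Ifit3 had 5 and 10 UMIs in NK cells, at -2.31 and -1.24, and were no longer called without library 2, at -2.10 and -3.26. Ifit3 was at -0.79 without library 4, and Ifit1 was not called without high doublet scores, at -2.28. Dusp1, a gene that rises during tissue dissociation, was lower (189 and 446 CPM, -1.24). Hspa1b was at -1.34 and at -0.98 without library 3.

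Outside the lists, values of both comparisons are given side by side. Adamts14 had log2 ratios of 5.45 over CD8 T cells and 4.95 over T cells without CD4 or CD8, Scimp of 5.01 and 4.99, Nrgn of 3.16 and 4.19, and Itgax, which encodes CD11c, of 3.43 and 3.12. Serpinb9b had 121 UMIs in NK cells, 9 in CD8 T cells (5.11) and 0 in the other T cells, which makes it at least 102.6-fold higher there. Sit1, a lymphocyte adaptor, had 0 UMIs in NK cells and was at least 9.58-fold lower than in CD8 T cells and at least 12.06-fold lower than in the other T cells. Most other genes with the largest negative ratios were T cell receptor variable genes such as Trbv13-2 and Trbv1, with 0 UMIs in NK cells.

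Some reads of T cell receptor constant genes remained in NK cells. The 14 listed T cell markers summed to 228 CPM in NK cells, 3793 CPM in CD8 T cells and 3329 CPM in T cells without CD4 or CD8. In NK cells the sum was mostly Trbc1 (87.8 CPM) and Trbc2 (70.1 CPM), with Trac at 16.7 CPM. The 6 gamma delta T cell genes summed to 125 CPM in NK cells, 32.9 CPM in CD8 T cells and 146 CPM in the other T cells. Trdv4 was at 41.8 CPM in NK cells, 0.812 CPM in CD8 T cells and 9.45 CPM in the other T cells (log2 ratio of NK cells over these 2.15). Tcrg-C4 was at 46.0, 7.72 and 30.0 CPM. Car2, carbonic anhydrase 2, was listed as an erythroid marker and was at 157 CPM in NK cells, 30.5 CPM in CD8 T cells and 24.7 CPM in the other T cells, with 95.9, 172, 129 and 197 CPM in NK cells of libraries 1 to 4.

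Within the NK cells, a split separated cells with ILC1 genes from cells with conventional NK genes. Cells with ILC1 genes had a UMI of Itga1, Cxcr6, Tnfsf10 or Cd200r1 and none of Eomes, Itga2, Klra4, Klra8, Klra9 and S1pr5, and cells with conventional NK genes had the reverse. There were 50 cells with ILC1 genes (15.8% of the NK cells, 11.9 to 20.3%) and 167 with conventional NK genes (52.7%, 47.0 to 58.3%), while 14 had both and 86 neither. The split rests on single UMIs. After thinning to 1000 UMIs the share with ILC1 genes was 7.77%. Cells with ILC1 genes numbered 11, 21, 13 and 5 in libraries 1 to 4 and held 13.8%, 15.8%, 19.4% and 13.5% of the NK cells there, with overlapping intervals. Cells with conventional NK genes numbered 49, 64, 33 and 21. Median depths were 2835 UMIs in cells with ILC1 genes and 2276 UMIs in cells with conventional NK genes.

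Over 2099 genes, 2.81% were called higher and 3.33% lower in cells with ILC1 genes, and the median log2 ratio was -0.04. Of 95 listed genes that the split did not use 17 were higher and 12 lower. Only library 2 had 20 cells on both sides, so the direction in single libraries was read there alone. The 4 other ILC1 genes with enough UMIs were all higher. Xcl1 was at 1420 CPM in cells with ILC1 genes and 306 CPM in cells with conventional NK genes (log2 ratio 2.21, and 1.72 in library 2), and Tmem176b at 539 and 93.4 CPM (2.53, and 2.07 in library 2). Ltb, a lymphotoxin chain, was at 719 and 139 CPM (2.37, and 3.72 without library 2). Tmem176a was at 324 and 75.5 CPM (2.10) and fell under 50 UMIs without library 2, at 2.68. Il7r had 33 and 4 UMIs, under the minimum for a call. Tmem176a and Tmem176b were also at 257 and 389 CPM in hepatocyte barcodes. The median hepatocyte marker share was 0.663% of UMIs in cells with ILC1 genes and 0.613% in cells with conventional NK genes, and its part in these ratios was not tested.

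Several genes of circulating, mature NK cells were lower in the cells with ILC1 genes. Prf1 was at 53.9 CPM in cells with ILC1 genes and 334 CPM in cells with conventional NK genes (log2 ratio -2.63, -1.36 in library 2 and -5.14 without it), and Klra7 at 24.0 and 366 CPM (-3.93). Against a limit of 3 counts over the cells with ILC1 genes, Klra3 with 0 and 66 UMIs was at least 7.30-fold lower and Cma1 with 0 and 54 UMIs at least 5.97-fold lower. Both lost the minimum of 50 UMIs without library 1 or 2, Cma1 without library 3 or 4 as well. Klra7 and Klra3 are Ly49 genes like Klra4, Klra8 and Klra9, which the split used. Over all NK cells Klra7 had a UMI in 53.5% (42.4 to 64.3%) of 86 cells with Klra4 and in 16.0% (11.5 to 21.4%) of 231 cells without it. After thinning these shares were 29.4% (17.5 to 43.8%) of 51 and 14.2% (10.0 to 19.4%) of 232 cells, and their intervals overlapped. Whether Klra3 is counted in the same cells as Klra4 was not tested. The ratios of Klra7 and Klra3 are therefore not taken as separate from the split. Klf2, which keeps lymphocytes in circulation, was at 204 and 505 CPM (-1.31), with -2.44 without library 2 and -0.95 without library 4. Gzma, which the rule used, was at 2582 CPM in cells with ILC1 genes, 52.0% of them with a UMI, and at 11204 CPM in cells with conventional NK genes, 97.6% of them with a UMI. Gzmb was at 839 and 835 CPM (0.01, -0.28 to 0.29).

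**Figure D3:**
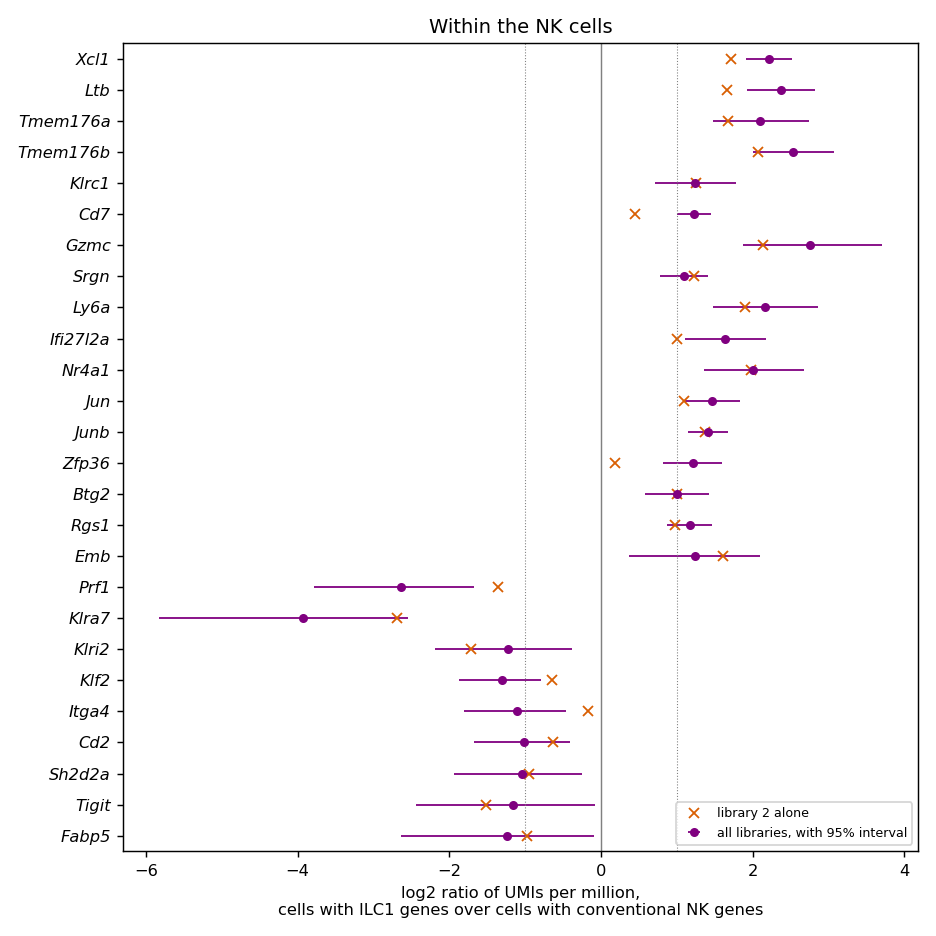
The log2 ratio of CPM of cells with ILC1 genes over cells with conventional NK genes for 26 listed genes called in either direction, with 95% conditional binomial intervals (points) and the value in library 2 alone (crosses). Klra7 and Prf1 lie furthest left, at -3.93 and -2.63, and Itga4, Zfp36 and Cd7 lie nearer to 0 in library 2 than in all libraries.

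Of 11 immediate early and dissociation genes 5 were called higher in cells with ILC1 genes and 0 lower. Junb was at 1342 CPM in cells with ILC1 genes and 503 CPM in cells with conventional NK genes (log2 ratio 1.42). Btg2 was at 1.01, and at 0.94 with a minimum of 1000 UMIs, 0.85 when Ncr1 and Klrb1c needed 2 UMIs and 0.78 without library 3. Zfp36 (1.21) was at 1.93 without library 2, 0.84 without library 3 and 0.93 without library 4. Jun (1.47) was at 0.97 without library 3, and Nr4a1 (2.01) fell under 50 UMIs without library 2, at 2.06. Junb, Jun and Zfp36 were at 0.52, 0.49 and 0.77 after thinning. Srgn, the granule proteoglycan, was at 892 and 417 CPM (1.10) and had a UMI in 82.0% of cells with ILC1 genes and 55.1% of cells with conventional NK genes. Klrc1 was at 329 and 139 CPM (1.24) and at 0.97 without library 1. Gzmc had 36 and 16 UMIs (2.76) and lost the minimum of 50 UMIs in 5 settings and its call after thinning, with 3.48 without the barcodes with other markers. Ly6a (2.16) and Ifi27l2a (1.64) were the interferon genes called higher, neither of them without library 2, at 2.74 and 2.71. After thinning Ifi27l2a turned, at -1.37. Markers of other types were called too. Apob, a hepatocyte marker, was at 431 and 191 CPM (1.18), with a UMI in 44.0% of cells with ILC1 genes and 32.3% of cells with conventional NK genes, and 60 of its 72 UMIs in cells with ILC1 genes came from library 2. Trbc1 was at 162 and 65.6 CPM (1.30). The haemoglobin genes Hba-a1, Hba-a2, Hbb-bs and Hbb-bt and the neutrophil genes S100a8 and S100a9 were called lower. Over all NK cells, 1089 of 1246 UMIs of the erythroid markers lay in 2 cells and 177 of 239 UMIs of the neutrophil markers in 4 cells. The decorin gene Dcn had 52 UMIs in 1 cell with ILC1 genes, and 71 of the 74 UMIs of all stellate cell markers in NK cells came from 1 cell of library 3. A cell of library 3 also held 318 of 412 UMIs of H2-Aa, H2-Ab1 and Cd74, and the comparison was repeated without such cells. Fabp5 was then at -0.92, with -1.25 from all cells, and was no longer called. It was not called without library 2 or 3 either, at -2.24 and -0.81. After thinning to 1000 UMIs a cell, 6 listed genes were called higher and 2 lower, among them Xcl1 (2.73) and Srgn, and Klra7 and Prf1 with 0 UMIs in cells with ILC1 genes. Tmem176b, Tmem176a and Ltb were then at 3.85, 3.11 and 2.97 and not called, and Klrc1 was at 2.54 and not called.

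**Figure D4:**
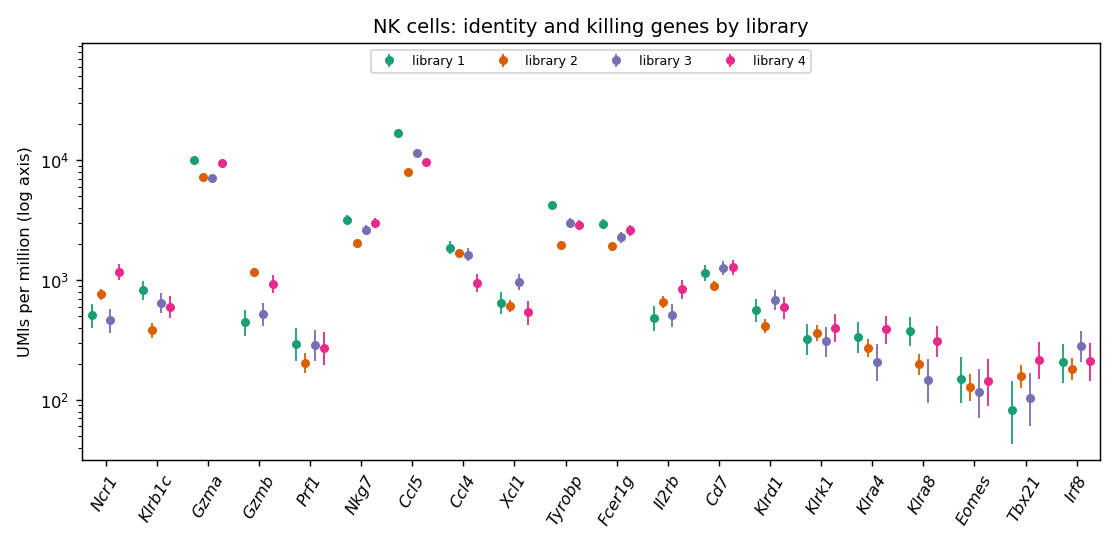
CPM in the NK cells of libraries 1 to 4 for 20 identity and killing genes on a log axis, with 95% Poisson intervals. Gzmb runs between 445 CPM in library 1 and 1169 CPM in library 2 and Ccl5 between 8043 CPM in library 2 and 16802 CPM in library 1, while Prf1, Eomes and Irf8 differ by under 2-fold.

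Killing and lineage genes were read in the NK cells of all 4 libraries, and some varied between them. Over 2984 genes with at least 50 UMIs in NK cells, 27.9% had a highest and a lowest library that differed by at least 2-fold with intervals that did not overlap. Of 116 listed genes outside the marker lists, the rule's own genes not left out, 54 did so (46.6%), Ncr1 and Klrb1c included. The highest value was in library 1 for 8, in library 2 for 15, in library 3 for 8 and in library 4 for 23 of these. The lowest was in library 1 for 18, in library 2 for 16, in library 3 for 18 and in library 4 for 2. Prf1 (294, 204, 289 and 272 CPM in libraries 1 to 4), Eomes (151, 128, 117 and 143 CPM) and Nkg7 (3163, 2031, 2617 and 3008 CPM) differed by under 2-fold. Ncr1, which the rule used, was at 507, 762, 461 and 1161 CPM and Gzmb at 445, 1169, 522 and 923 CPM. Both were highest in libraries 2 and 4. Ccl5 was at 16802, 8043, 11500 and 9682 CPM and Tyrobp at 4245, 1965, 3004 and 2899 CPM, both highest in library 1 and lowest in library 2. Libraries differ in depth and in sample, and these cannot be told apart.

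Tigit, Jun, Nr4a1 and Myc were lowest in library 1. Tigit, an inhibitory receptor, had 1 UMI in library 1 (6.85 CPM) and 104, 86.0 and 109 CPM in libraries 2 to 4. Jun was at 54.8, 432, 541 and 414 CPM and Nr4a1 at 27.4, 122, 129 and 340 CPM in libraries 1 to 4. Myc was at 27.4, 198, 73.7 and 170 CPM. Ctla2a ran the other way, at 383, 116, 141 and 122 CPM. Ly6a was low in library 4 alone, at 95.9, 126, 92.2 and 6.79 CPM. Of 10 genes listed for the metabolism of activated lymphocytes that had enough UMIs, 7 varied, with Pkm at 103, 482, 98.3 and 475 CPM and Ldha at 438, 1227, 670 and 1209 CPM. Hepatocytes also carry Ldha (1209 CPM in hepatocyte barcodes) but little Pkm (34.4 CPM). Hepatocyte marker RNA in the NK cells moved as well, with Alb at 274, 1661, 620 and 482 CPM and a median hepatocyte marker share of 0.0832%, 1.13%, 0.369% and 0.590% of UMIs, and its part in the differences was not tested.

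**Figure D5:**
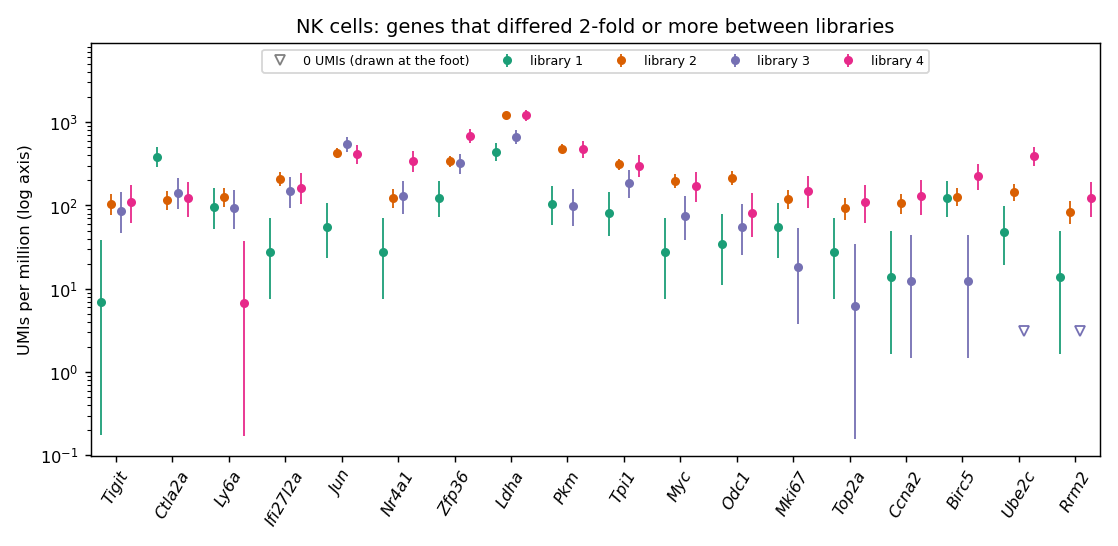
CPM in the NK cells of libraries 1 to 4 for 18 genes that differed between libraries, on a log axis with 95% Poisson intervals and open triangles for 0 UMIs. Library 1 is lowest for Tigit, Jun, Nr4a1 and Myc, and libraries 2 and 4 are highest for Pkm, Mki67, Top2a and Ube2c.

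Counts of cell division genes were also highest in libraries 2 and 4. Mki67, a marker of cycling cells, was at 54.8, 118, 18.4 and 149 CPM in libraries 1 to 4, Top2a at 27.4, 92.0, 6.14 and 109 CPM, and Ube2c at 47.9, 144, 0 and 394 CPM. A single cell can weigh heavily. The cell with the most UMIs of the 22 listed genes of the G2 and M phases held 102 of 191 in library 1, 210 of 843 in library 2, 34 of 94 in library 3 and 145 of 386 in library 4. Counted per cell after thinning to 1000 UMIs, 9.19% (6.09 to 13.2%) of 283 NK cells had 3 or more UMIs of these genes, against 11.6% of 580 CD8 T cells, 4.24% of 919 T cells without CD4 or CD8 and 3.90% of 1000 hepatocyte barcodes. By library the NK share was 4.69% of 64, 13.2% of 129, 3.70% of 54 and 11.1% of 36 cells, and the intervals overlapped. For the 20 genes of S phase the share was 4.24% in NK cells, 7.59% in CD8 T cells and 2.50% in T cells without CD4 or CD8.

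RNA of other cell types was counted in the NK barcodes too. The 18 hepatocyte markers summed to 10042 CPM in NK cells, 9820 CPM in CD8 T cells, 11922 CPM in T cells without CD4 or CD8 and 78426 CPM in hepatocyte barcodes. A total of 10 NK cells held 10 or more UMIs of erythroid, stellate, neutrophil or endothelial markers or of H2-Aa, H2-Ab1 and Cd74, with 5, 3, 2 and 0 in libraries 1 to 4. The 8 erythroid markers had 1246 UMIs in all NK cells, of which 1089 lay in 2 cells. The labels' protocol lysed red blood cells before loading. A doublet score above 0.25 was given to 21 NK cells, with 14 in library 1 and 7 in library 3. The log2 ratios were compared without the 10 cells and their like in the other classes. Of 151 that could be compared, 7 left the interval of the value from all cells, and none changed direction. That interval leaves out the counting error of the smaller data.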

How the data were processed

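Single-cell RNA libraries (10x 3' chemistry) of 4 mouse liver samples were deposited as 1 joined matrix of raw UMI counts. The counts were made with Cell Ranger 6.0.1, per the file headers, on build mm9, per the submitters' processing notes. No label states whether the authors normalized depth when joining the libraries. The matrix held 38072 barcodes, 31053 genes and 15593960, 49975828, 24012736 and 40617071 UMIs in libraries 1 to 4. Of the barcodes 36150 passed the quality limits, and 1425 shared their sequence with a barcode of another library.

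Counts were summed over the cells of a class and divided by the class total (CPM). Since libraries could not be paired with samples, the matrix counts as 1 sample and no test was made. Intervals were exact: Poisson for CPM, Clopper-Pearson for shares, and conditional binomial for ratios. They cover counting error only. Doublets were scored with Scrublet in scanpy 1.11.5 and left in, and 1359 barcodes had a score above 0.25. Numbers were computed with Python 3.11.15, numpy 2.4.6, scipy 1.17.1 and pandas 2.3.3, and the comparisons were run on simulated counts. These were drawn as Poisson counts, the error that the intervals assume. They check the computation and not the spread between cells. Hepatocyte barcodes had at least 5% of UMIs from hepatocyte markers and no UMI of Ptprc. They served as the class that should lack NK genes, and 1000 of them were thinned. Low counts of leukocyte genes there are in part set by the Ptprc limit. T cell classes had under 3 UMIs of C1qa, C1qb and C1qc and none of Cd79a or Siglech.

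The members and the 29 gene lists (349 genes) were chosen with earlier results of these data known. Genes are named by rule: list members by level from 20 UMIs, called members by the largest ratio (up to 8 per list), and up to 15 genes outside the lists per direction. Members not called, and genes at 0, are named beside them as values. Alternatives were other quality and marker limits, doublets left out, thinning to 1000 UMIs, libraries at equal weight and each library left out. Leaving out barcodes with 10 or more UMIs of other types' markers was chosen after seeing the data. No sequence is printed because the annotation used here is of another build, and gene names matched for 30934 identifiers. Results for some listed genes are not reported here.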

Additional observations from a re-analysis of the deposited data

How the results depend on the processing

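The share of NK cells was 1.04% of barcodes with at least 1000 UMIs and 0.669% when Ncr1 and Klrb1c needed 2 UMIs between them, against 0.877% as reported, and leaving out 1 library at a time gave 0.657% to 1.02%. The lectin-like receptors summed to 3197 CPM without high doublet scores, 3331 CPM with libraries at equal weight and 3558 CPM after thinning, and to 2922 to 3550 CPM with 1 library left out. Thinning to 1000 UMIs gave 7.77% of cells with ILC1 genes and left 6 higher and 2 lower listed genes in the split, against 17 and 12. After thinning the log2 ratio of Ifi27l2a in the split was -1.37, against 1.64 with all counts, and the cause was not tested. No other log2 ratio that was compared reversed under the alternatives run.

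Over the alternatives, 42 to 56 listed genes were higher and 15 to 26 lower than in CD8 T cells, and 37 to 45 higher and 21 to 28 lower than in T cells without CD4 or CD8. Leaving out library 2 moved 52 of 146 log2 ratios out of the interval of the value from all cells. Leaving out library 1 moved 11 of 151, library 3 moved 10 of 151 and library 4 moved 4 of 149. That interval leaves out the counting error of the smaller data, so such a move can still be counting error. Of the named genes 23 of 64 against CD8 T cells, 33 of 62 against T cells without CD4 or CD8 and 3 of 29 in the split kept their call and their value under every alternative run. Equal weight was not run for the split, where library 2 was the only one with enough cells on both sides.

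No paired analysis was possible because the libraries could not be paired with samples and each group held 1 sample. Counting error limits genes under 50 UMIs, and 317 cells limit every share.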
